A study of Mus musculus with 6 samples.

Results

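Inflammatory chemokine receptors were examined in lymph nodes of Rag2/pfp KO mice and of wild-type mice. The set was given by gene name and comprised 9 receptors, Ccr1, Ccr2, Ccr3, Ccr4, Ccr6, Ccr8, Ccr9, Cxcr6 and Cx3cr1. They were 9 of 16593 named genes on the array and were measured by 10 of its 25697 probes, 1 per gene except for Ccr6, which had 2. Total RNA from lymph nodes was hybridised to Illumina mouse BeadChips, 3 arrays of Rag2/pfp KO nodes and 3 arrays of wild-type nodes. The knockout mice carry a loss of Rag2, which is needed to assemble antigen receptor genes and so to form B and T cells. They also lack pfp, the gene of the pore-forming protein perforin, whose symbol is now Prf1. The labels give neither the strain, age and sex of the mice nor which node was taken, and they do not say whether replicates came from separate animals. The p-values therefore reflect array-to-array spread alone, and that spread may be technical.

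Chemokine receptors are G protein-coupled receptors that steer white blood cells along gradients of small secreted proteins, the chemokines. Each receptor is made by a limited range of cells. CCR6 is known on B cells, on interleukin 17-producing and regulatory T cells and on innate lymphoid cells. CCR4 and CCR8 are known on regulatory and type 2 helper T cells, and CCR9 on cells that home to the gut and thymus. CXCR6 marks innate lymphoid, natural killer and activated T cells. CCR1, CCR2 and CX3CR1 are receptors of monocytes and macrophages, and CX3CR1 is also found on natural killer cells, while CCR3 is the receptor of eosinophils. In RNA from a whole node, fewer cells of a type and less RNA per cell cannot be told apart.

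Of the 9 receptors, 3 could be tested, and Ccr6 was the only one that changed: it was about 9.5-fold lower in the knockout by both of its probes. Cxcr6 and Cx3cr1 were lower by less than the test could separate from the spread between arrays. The other 6 receptors were at or near background in both genotypes. Here a probe was tested if its detection p-value, which compares it with the negative control beads of the same array, was under 0.05 on at least 3 of the 6 arrays. Among all features tested by this rule, 28.6% of 14378 probes were called different between the genotypes (limma, adjusted p under 0.05). At the level of genes, 17.3% of 9973 were called lower and 10.2% higher in the knockout. The median log2 fold change over the tested genes was 0.03. With so large a share of all genes called, 1 call among 3 tested receptors is close to the background and is not a result about the receptors as a set.

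Neither targeted gene checked the genotype labels. Rag2 was at background on all 6 arrays, and Prf1 was detected on all 6, with log2 fold changes of -0.14 (limma adjusted p = 0.804) and 0.35 (limma adjusted p = 0.439) by its 2 probes. Whether these probes lie in the deleted stretches was not tested. The tissue label went with bright B and T cell markers on the wild-type arrays, although Pax5 and Cd8a of the same lists were at background on all 6 arrays. Transcripts of exocrine glands were abundant on all 3 knockout arrays and on wild-type replicate 2. The mean log2 signal of 14 gland genes was 12.29, 14.71 and 13.84 on knockout replicates 1, 2 and 3, and 5.66, 12.45 and 5.56 on wild-type replicates 1, 2 and 3. Detected probes made up 51.3% to 53.5% of a knockout array and 54.7% to 56.3% of a wild-type array. The background level, taken as the signal of probes with a detection p-value near 0.5, was 88.5 to 92.2 units on the knockout arrays and 129 to 147 units on the wild-type arrays. Raw signals can therefore be lower on a knockout array with no change in the transcript, and normalized log2 values are used for comparisons.

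**Figure D1:**
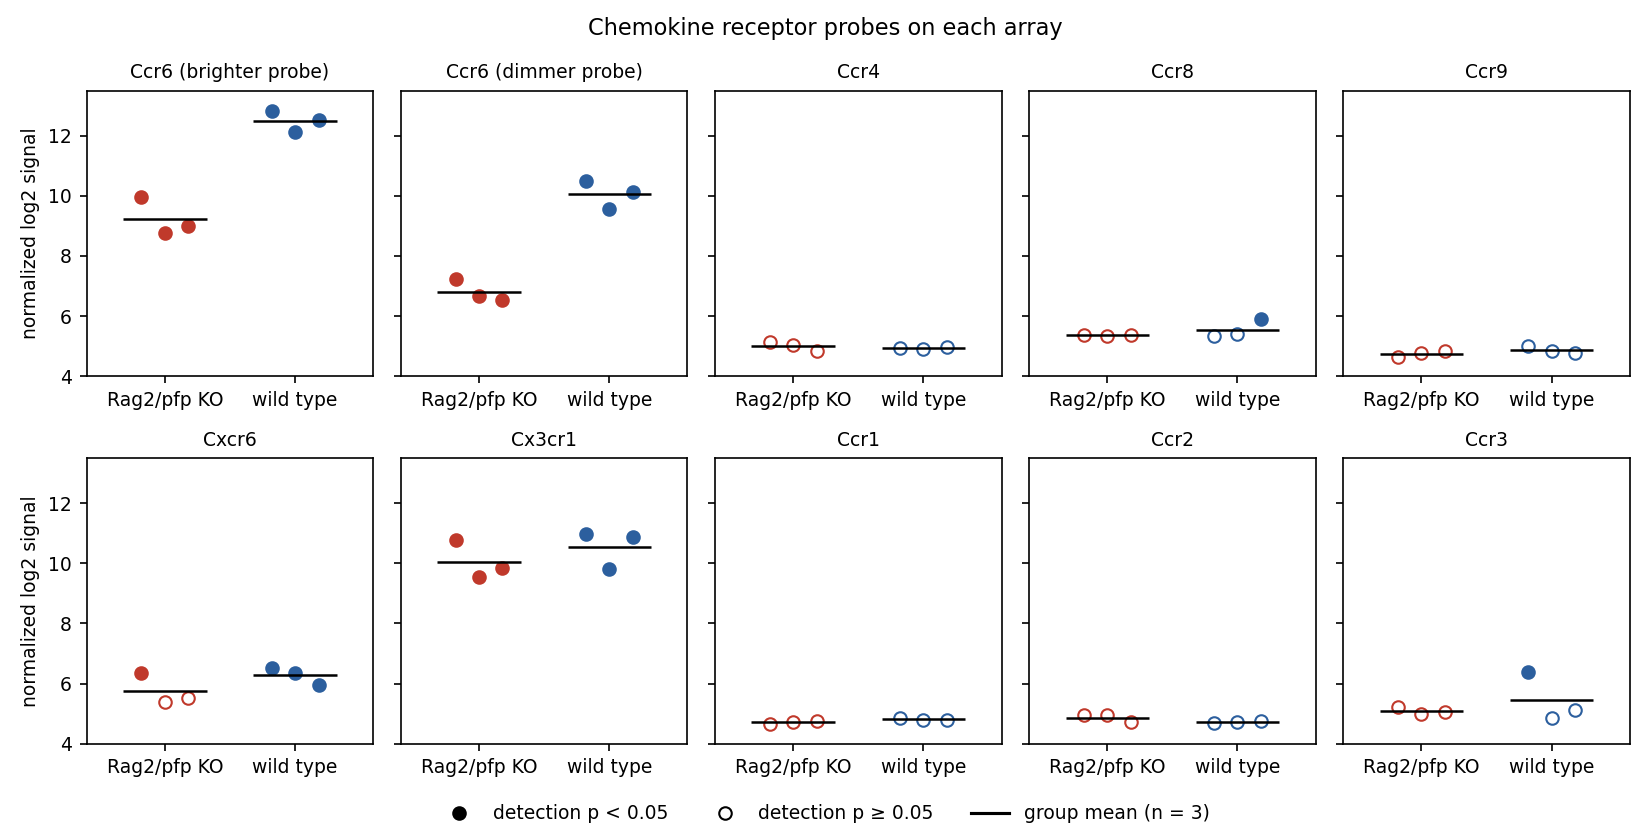
Normalized log2 signal (vertical axis) of the 10 receptor probes on the 3 Rag2/pfp KO arrays (left, red) and the 3 wild-type arrays (right, blue), with filled points where the detection p-value was under 0.05, open points where it was not, and bars at the group means. Both Ccr6 probes separate the genotypes, as do 47.4% of all tested genes. Cx3cr1 is detected on every array with overlapping groups, and Ccr1, Ccr2, Ccr4 and Ccr9 are detected on none.

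The promoter windows of the 3 tested receptors are shown because these are the genes whose signals can be followed. The windows come from RefSeq on build GRCm38.p6 and run from 250 bases before to 50 bases after an annotated transcription start, written 5′ to 3′ on the gene's own strand. All 9 receptors had a window and Ccr6 had 2, at chr17:8235793-8236092 and chr17:8242276-8242575 on the plus strand. Cxcr6 lies on the plus strand (chr9:123806227-123806526) and Cx3cr1 on the minus strand (chr9:120068247-120068546). Capitals mark the octamer ATGCAAAT, a motif read by OCT factors in many B cell promoters, and the RUNX core TGTGGT, each searched on both strands; the 2 motifs do not overlap here.
Ccr6, upstream start: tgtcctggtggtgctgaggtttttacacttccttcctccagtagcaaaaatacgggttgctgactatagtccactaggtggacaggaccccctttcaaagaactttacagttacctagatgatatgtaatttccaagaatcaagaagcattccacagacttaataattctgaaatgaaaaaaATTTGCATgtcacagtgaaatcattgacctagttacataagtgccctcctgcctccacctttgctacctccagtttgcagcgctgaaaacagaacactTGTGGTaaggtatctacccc
Ccr6, downstream start: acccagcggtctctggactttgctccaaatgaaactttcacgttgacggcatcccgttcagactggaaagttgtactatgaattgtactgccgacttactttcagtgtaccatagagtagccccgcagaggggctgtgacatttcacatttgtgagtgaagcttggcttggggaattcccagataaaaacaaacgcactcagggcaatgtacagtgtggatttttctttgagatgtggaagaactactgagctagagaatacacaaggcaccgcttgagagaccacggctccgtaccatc
Cxcr6: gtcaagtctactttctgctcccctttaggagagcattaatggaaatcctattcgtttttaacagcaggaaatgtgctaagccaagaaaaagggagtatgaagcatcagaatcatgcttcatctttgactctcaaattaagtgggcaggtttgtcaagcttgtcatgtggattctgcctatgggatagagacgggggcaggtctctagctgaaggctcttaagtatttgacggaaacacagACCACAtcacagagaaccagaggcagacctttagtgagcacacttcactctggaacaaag
Cx3cr1: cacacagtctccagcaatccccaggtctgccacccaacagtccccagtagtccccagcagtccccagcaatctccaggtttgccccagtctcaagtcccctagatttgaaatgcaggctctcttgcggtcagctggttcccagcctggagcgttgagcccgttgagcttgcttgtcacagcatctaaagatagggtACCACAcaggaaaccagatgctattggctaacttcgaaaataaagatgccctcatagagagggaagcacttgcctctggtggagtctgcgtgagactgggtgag

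The octamer stood in 1 of the 10 receptor windows, that of the upstream Ccr6 start, beginning 68 bases before the start in the reverse orientation (ATTTGCAT). Across 32851 promoter windows of the same length, 1.74% held it. The RUNX core stood in 4 of the 10 windows, those of Ccr1, Cxcr6, Cx3cr1 and the upstream Ccr6 start, against 16.8% of all windows. A match gives only the letters in the window, and the arrays do not measure the binding of any factor or which start is used. By their order on chromosome 9, Ccr9, Fyco1, Cxcr6, Xcr1, Ccr1, Ccr1l1, Ccr3 and Ccr2 are consecutive annotated genes, Cx3cr1 and Ccr8 are direct neighbours elsewhere on that chromosome, and Ccr4 lies apart. Ccr6 is the only receptor of the set outside chromosome 9, on chromosome 17. Within the run, Fyco1, a motor adaptor of autophagosomes, had a log2 fold change of -0.50 (limma adjusted p = 0.172) and Xcr1, the receptor of cross-presenting dendritic cells, one of -0.26 (limma adjusted p = 0.619).

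Ccr6 was the lymphocyte receptor with a clear signal. Its brighter probe read 9.96, 8.75 and 8.98 on the log2 scale on knockout replicates 1 to 3, and 12.82, 12.11 and 12.51 on wild-type replicates 1 to 3. Every knockout array lay more than 2 log2 units below every wild-type array. As raw signals, these were 1049, 419 and 555 units in the knockout and 7710, 4702 and 6570 units in wild type. The log2 fold change was -3.25 (SE 0.36, 95% interval -4.12 to -2.38, limma adjusted p = 0.0033), which leaves 10.5% of the wild-type level. The dimmer probe read 7.23, 6.66 and 6.53 in the knockout and 10.49, 9.57 and 10.11 in wild type, again without overlap. A lack of overlap was common, at 47.4% of all tested genes. The log2 fold change of the dimmer probe was also -3.25 (SE 0.30, 95% interval -3.98 to -2.52, limma adjusted p = 0.0024). The 2 probes thus gave 9.52-fold and 9.50-fold lower levels, and they ranked 73rd and 74th among the falls of 14378 probes. Both remained above background on all 3 knockout arrays, so a Ccr6 signal was still measured there. Within the knockout, replicate 1 read highest by both probes.

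The fall of Ccr6 held in every alternative tried. With any 1 array left out, the log2 fold change lay between -3.62 and -3.01 for the brighter probe and between -3.49 and -3.03 for the dimmer one, with limma adjusted p of at most 0.021. Wild-type replicate 2 was the wild-type array with gland transcripts. Against it alone, a comparison that holds no wild-type spread, the changes were -2.88 and -2.76. With the mean signal of the gland genes as a covariate they were -2.57 and -2.56 (limma adjusted p = 0.016 and 0.0095).

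The markers of the cells known to carry CCR6 moved with it in part. Over all tested genes 17.3% were called lower and 10.2% higher. Beside these shares, the small counts in the lists of 7 genes are not a result about those lists. Of 8 tested B cell markers, 8 fell, and their median change was -4.97 on the log2 scale. It was -4.96 once the 5 markers at background on every knockout array were set at their bound. Those 5 passed the filter through the wild-type arrays alone, so a fall was the only change open to them. With those bounds, 5 of the 8 fell by more than Ccr6. Of the B cell markers detected on all 6 arrays, Cd79b (-4.91) and Blk (-5.04) fell by more than Ccr6 and Cd22 (-2.34) by less. Of 8 tested T cell markers, 8 fell, with a median of -4.62, and 6 fell by more than Ccr6, Cd5 and Cd28 among them being at background on some knockout arrays. For both lists the mean log2 signals were apart, 6.13 to 6.43 in the knockout against 11.06 to 11.83 in wild type for B cells, and at most 8.10 in the knockout against at least 11.44 in wild type for T cells. Groups were also apart for 47.4% of all tested genes. The B cell markers Cd79a, Ms4a1, Cr2, Fcer2a and Fcmr were not above background on any knockout array, whereas Cd79b, Cd22 and Blk were, and the T cell receptor chains Cd3d, Cd3e and Cd3g were detected on all 3. Of 7 markers of regulatory and type 2 helper T cells, 2 fell, and the median of the list was -0.26. The 5 not called were Ikzf4 (0.72), Tnfrsf4 (0.43), Tnfrsf18 (0.10), Gata3 (-0.26) and Il2ra (-1.05). Of the 2 that fell, Ctla4, an inhibitory receptor, was at least 11.6-fold lower. Foxp3, the regulatory T cell factor, had a log2 fold change of -3.09 (SE 0.25, limma adjusted p = 0.0018), with 1 of 3 knockout arrays above background. Ctla4 too passed the filter through the wild-type arrays alone, so only a fall was open to it. The innate lymphoid list had a median of -0.43 over 7 tested genes, of which 2 were called higher and 1 lower by 1 probe per gene. Il7r, an interleukin receptor, was not called by the probe counted (-0.62, limma adjusted p = 0.103). Its other probe was called lower (-1.37, limma adjusted p = 0.030). The interleukin 25 receptor Il17rb rose by 3.07 (SE 0.29, limma adjusted p = 0.0025), Klrg1 by 1.92 (SE 0.42, limma adjusted p = 0.020), and the transcriptional regulator Id2 fell by 0.73 by its brighter probe (SE 0.22, limma adjusted p = 0.049). The other Id2 probe read -0.01 and was not called (limma adjusted p = 0.983). The list's fall was lost without any 1 array other than knockout replicate 1, and 1 rise in place of 2 was left without knockout replicate 2 or wild-type replicate 3. The B and T cell counts stayed at 8 of 8 with any 1 array left out. How much of the fall of Ccr6 came with any of these cell types was not tested.

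**Figure D2:**
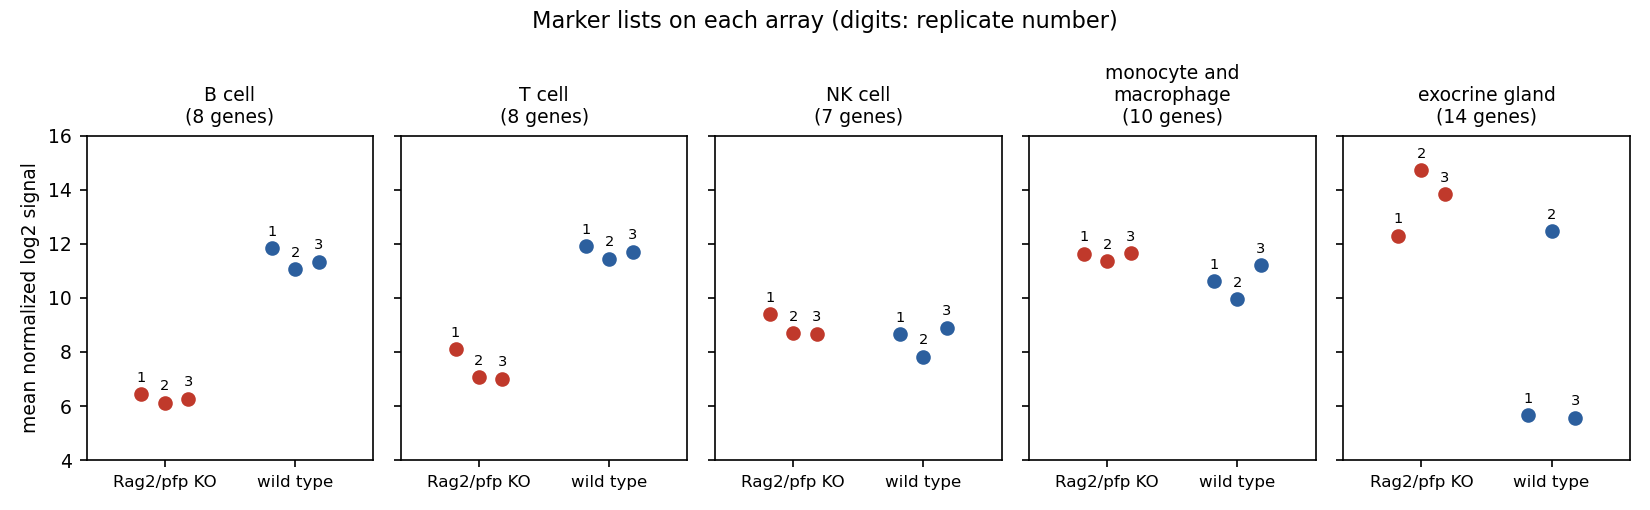
Mean normalized log2 signal (vertical axis) of the tested members of 5 marker lists on each array, Rag2/pfp KO left in red and wild type right in blue, with the replicate number above each point. B and T cell markers separate the genotypes and are lower in the knockout. Monocyte and macrophage markers lie narrowly apart in the other direction, at 11.36 to 11.65 in the knockout and 9.96 to 11.20 in wild type. A lack of overlap was common, at 47.4% of all tested genes. NK cell markers overlap, at 8.68 to 9.39 in the knockout and 7.83 to 8.89 in wild type. Gland genes are high on all 3 knockout arrays and on wild-type replicate 2.

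Of the 9972 other tested genes, those whose profile over the 6 arrays was most like that of the brighter Ccr6 probe were Ptprc, H2-Ob and H2ac12. Likeness was the root mean square difference of log2 values after each gene was centred on its own mean, and it was 0.12 for Ptprc, 0.13 for H2-Ob and 0.17 for H2ac12. Ptprc encodes the leukocyte antigen CD45, H2-Ob a chain of the MHC class II chaperone of B cells, and H2ac12 a histone. For the dimmer probe the nearest were Nusap1, a spindle protein (0.15), Ralgps2, an exchange factor for Ral GTPases (0.16), and Gpr174, a lysophospholipid receptor of lymphocytes (0.17). The 2 probes of Ccr6 thus had different nearest genes. All of these were called lower in the knockout, which follows from their choice by likeness to Ccr6 and is not a separate result. The same limit holds for the nearest genes of Cxcr6 and Cx3cr1 given below.

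The other lymphocyte receptors gave no measurable level. Ccr4 was above background on none of the 6 arrays, with detection p-values from 0.179 to 0.505 in the knockout and from 0.289 to 0.365 in wild type. Ccr9 was likewise at background, with detection p-values from 0.535 to 0.920 in the knockout and from 0.283 to 0.659 in wild type. Ccr8 read 115, 110 and 116 units in the knockout (detection p-values 0.094 to 0.138) and 173, 159 and 187 units in wild type (detection p-values 0.023 to 0.090). Only wild-type replicate 3 was above background for Ccr8, and relative to the background of each array all 6 values lay between 1.18 and 1.37 times. The higher raw signals in wild type thus went with the higher background of those arrays. A fall or rise of Ccr4, Ccr8 or Ccr9 was not detectable at these signals.

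Cxcr6, the innate lymphoid receptor, was close to background. It read 6.36, 5.39 and 5.52 on the log2 scale on knockout replicates 1 to 3, and 6.50, 6.37 and 5.97 on wild-type replicates 1 to 3. The probe was above background on all 3 wild-type arrays (detection p-values 0.0025 to 0.018) and on 1 knockout array, replicate 1 (detection p-value 0.0088). Knockout replicate 1 lay within the wild-type range and the other 2 knockout arrays lay below it. The log2 fold change was -0.52 (SE 0.30, 95% interval -1.25 to 0.21, limma adjusted p = 0.223). The interval holds both no change and a fall of more than 1 log2 unit. At this brightness the offset of 16 added during normalization shrinks any fold. The genes with the nearest profile were Shisa5, a membrane protein (root mean square difference 0.14), Axin2, a Wnt feedback inhibitor (0.17), and Ggct, an enzyme of glutathione turnover (0.18), none of them called.

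Among the myeloid receptors, Cx3cr1, the fractalkine receptor, was bright on every array. It read 10.77, 9.53 and 9.86 on the log2 scale on knockout replicates 1 to 3, and 10.96, 9.82 and 10.86 on wild-type replicates 1 to 3. The groups overlapped: knockout replicate 1 stood with wild-type replicates 1 and 3 near 11, and wild-type replicate 2 stood with knockout replicates 2 and 3 under 10. The means were 10.05 ± 0.64 in the knockout and 10.55 ± 0.63 in wild type (SD, n = 3 each). The log2 fold change was -0.50 (SE 0.43, 95% interval -1.54 to 0.55, limma adjusted p = 0.401). Its sign turned against wild-type replicate 2 alone (0.23) and with the gland covariate (0.59, limma adjusted p = 0.288). Without wild-type replicate 2 it was -0.86 (limma adjusted p = 0.101), and with arrays weighted by their estimated quality it was -0.88 and passed the threshold (limma adjusted p = 0.034). The nearest profiles were those of Supt20, a transcription cofactor (root mean square difference 0.10), Fign, a microtubule-severing enzyme (0.11), and Tenm3, a teneurin adhesion protein (0.12), none of them called.

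Ccr1 and Ccr2, which draw monocytes to inflamed tissue, were above background on none of the 6 arrays. Ccr1 had detection p-values from 0.708 to 0.865 in the knockout and from 0.519 to 0.629 in wild type, and Ccr2 from 0.336 to 0.798 in the knockout and from 0.738 to 0.865 in wild type. Ccr3, the eosinophil receptor, was above background on wild-type replicate 1 alone, at 224 units (detection p-value 0.0050). It read 109, 95.8 and 104 units on the knockout arrays and 132 and 151 units on wild-type replicates 2 and 3. Of 5 eosinophil markers on the array, Prg2, a granule protein, was the one that could be tested. Prg2 read 8.72, 8.17 and 9.24 on the log2 scale in the knockout and 11.73, 9.19 and 11.57 in wild type, a difference that missed the threshold (-2.12, SE 0.71, limma adjusted p = 0.068). It was called lower without wild-type replicate 2, with array weights and with the replicate number as a block. Epx, the eosinophil peroxidase, was detected on 1 wild-type array and on 0 knockout arrays. Ccr1 and Ccr2 were at background beside bright macrophage markers. The mean log2 signal of 10 monocyte and macrophage markers was 11.36 to 11.65 in the knockout and 9.96 to 11.20 in wild type. Of the 10, 4 rose while 0 fell (median 1.10), beside 10.2% of all tested genes called higher. These counts take 1 probe per gene, its brightest, and at that level none was lower in limma at an unadjusted p under 0.05. The probes of Lyz2, the lysozyme of macrophages, disagreed: 1 of 3 was called lower (-0.96, limma adjusted p = 0.045), and the others read -0.62 and 0.60. The 4 were the complement chain C1qa at 1.91 (SE 0.39, limma adjusted p = 0.017), Cd163 at 1.67 (limma adjusted p = 0.030), the scavenger receptor Marco at 1.21 (limma adjusted p = 0.042) and Cd14. With knockout replicate 1, 2 or 3 or wild-type replicate 1 left out, 0 of the 10 passed the test, and without wild-type replicate 2 or 3, 5 did. Whether 1 probe per gene reports Ccr1 or Ccr2 well on this platform was not tested.

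The classes could be set against each other only through Ccr6, Cxcr6 and Cx3cr1. The log2 difference between Ccr6 (brighter probe) and Cx3cr1 on the same array was -0.81, -0.78 and -0.88 on the knockout arrays and 1.86, 2.29 and 1.64 on the wild-type arrays. Probes differ in brightness, so only its change between genotypes can be read. The difference changed by -2.75 log2 units in the knockout relative to wild type, and its spread there was narrow (SD 0.05, against 0.33 in wild type, n = 3 each). Between Ccr6 and Cxcr6 the change was -2.73 log2 units, but Cxcr6 was not above background on knockout replicates 2 and 3, so its size there rests on background readings. Between Cxcr6 and Cx3cr1, with the same limit, it was -0.02 log2 units and the groups overlapped. Over the 3 comparisons, the exact two-sided permutation test gave p = 0.1, 0.1 and 1, and 0.15, 0.15 and 1 after Benjamini-Hochberg adjustment. With 3 arrays against 3 the smallest p possible is 0.1, so this design cannot reach 0.05.

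**Figure D3:**
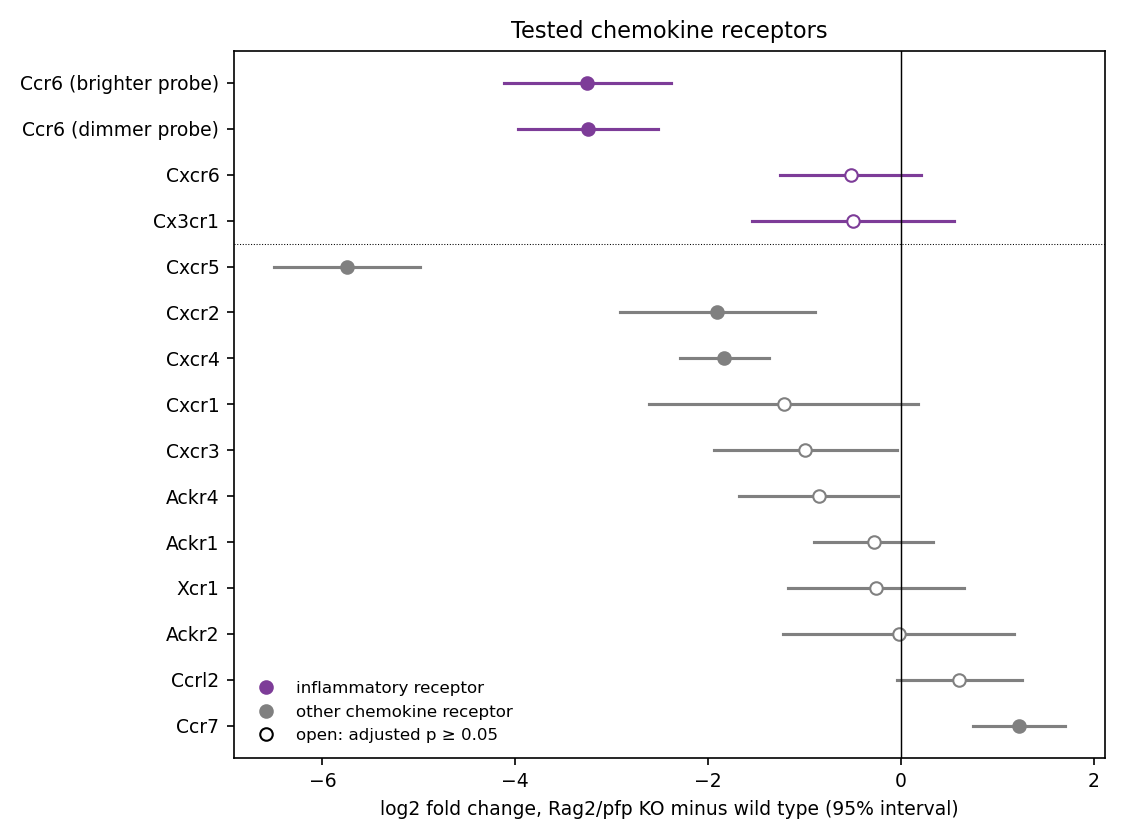
Log2 fold change of each tested chemokine receptor, Rag2/pfp KO minus wild type, with 95% intervals (horizontal axis), for the 4 probes of the inflammatory receptors above the dotted line and 11 other chemokine receptors below it. Filled points passed an adjusted p of 0.05. Ccr6 lies at -3.25 by both probes, Cxcr2 at -1.90, Cxcr4 at -1.83 and Ccr7, the only rise, at 1.22. Cxcr5 is filled too, at -5.75, and was above background on 1 of the 3 knockout arrays.

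In the rest of the receptor family, 11 of 13 genes on the array were tested, of which 3 fell, 1 rose and 7 were not called, with a median log2 fold change of -0.85. Over all tested genes 17.3% were called lower and 10.2% higher, and counts this small are not a result about the family. Cxcr5, which takes B cells into follicles, read 6.05, 5.20 and 5.55 in the knockout and 11.76, 10.85 and 11.44 in wild type, a log2 fold change of -5.75 (SE 0.31, limma adjusted p = 0.00076) with 3 of 3 probes called lower (the other two at -4.93 and -3.34). Its brighter probe was above background on 1 of the 3 knockout arrays, so the size of this fall rests partly on background readings. Cxcr4, the receptor for Cxcl12 on most leukocytes, had a log2 fold change of -1.83 (SE 0.19, limma adjusted p = 0.0030). Cxcr2, a neutrophil receptor, had one of -1.90 (SE 0.42, limma adjusted p = 0.021), a call that did not hold when knockout replicate 2, knockout replicate 3 or wild-type replicate 3 was omitted (0.072 at the highest). The 7 neutrophil markers beside it had a median log2 fold change of -1.95 with 0 of 7 called, and their mean log2 signals overlapped, at 8.84, 9.13 and 10.78 in the knockout and 13.54, 8.96 and 11.68 in wild type. Without wild-type replicate 2, 5 of the 7 were called lower, and with array weights 4 were. Ccr7, which brings T cells and mature dendritic cells into nodes, rose by 1.22 (SE 0.20, limma adjusted p = 0.0086). Ccr7 read 10.82, 10.33 and 10.40 in the knockout and 9.43, 9.07 and 9.39 in wild type. Without wild-type replicate 2, 6 of these receptors fell.

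Ligands of Ccr1, Ccr4, Ccr8, Cxcr6 and Cx3cr1 were higher in the knockout, for Ccr1 2 of its 5 ligands. Of these receptors, Ccr1, Ccr4 and Ccr8 were too dim to be tested, so whether they changed is not known. Cxcr6 and Cx3cr1 were tested and not called, except for Cx3cr1 with array weights. Of 18 chemokines listed, 17 of them ligands of one of the 9 receptors in mouse, 15 were tested. Of these 7 rose and 0 fell, with a median log2 fold change of 0.66, beside 10.2% of all genes called higher. No ligand fell in limma at an unadjusted p under 0.05 either. The 7 were ligands of 5 of the 9 receptors. Among the 7, Ccl22 passed the filter through the knockout arrays alone, so a rise was the only change open to it. Without knockout replicate 2 or wild-type replicate 1 the number that rose was 3, and without knockout replicate 3 it was 4.

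For Ccr4, both ligands rose. Ccl17, made by dendritic cells, read 9.96, 9.40 and 9.94 on the log2 scale in the knockout and 6.75, 7.12 and 6.72 in wild type, a log2 fold change of 2.90 (SE 0.22, limma adjusted p = 0.0016). Ccl22 read 7.15, 6.55 and 6.06 in the knockout, against 5.42, 5.09 and 5.35 in wild type, where no array was above background. Because Ccl22 passed the filter through the knockout arrays alone, a rise was the only change open to it. It was at least 2.00-fold higher in the knockout, taking for each wild-type array the lowest detected signal or the probe's reading, whichever was larger (limma adjusted p = 0.023). That call depended on knockout replicate 2 and on wild-type replicates 1 and 3 (leaving out any of these gave an adjusted p of up to 0.069), whereas the call of Ccl17 held with any 1 array left out (adjusted p of at most 0.015). Markers of dendritic cells moved with these ligands in part: 4 of 8 tested rose and 0 fell, beside 10.2% of all tested genes called higher. Ccl22 itself was one of the 4. Only 2 rose when knockout replicate 2, wild-type replicate 1 or wild-type replicate 3 was omitted, and also against wild-type replicate 2 alone. Without wild-type replicate 2, 1 was called lower. At an unadjusted p under 0.05, 1 of the list was lower in limma, Irf8 (-0.65), a transcription factor named after its value was seen. Their mean log2 signal was 10.39, 9.62 and 9.55 in the knockout and 9.48, 8.76 and 9.28 in wild type, and their part in the rise of Ccl17 was not tested.

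For Cxcr6 and Cx3cr1, the single ligand of each rose while the receptor did not pass the test. Cxcl16 read 13.68, 12.93 and 12.93 in the knockout and 11.19, 10.88 and 11.34 in wild type, 4.12-fold higher (2.04 on the log2 scale, SE 0.26, limma adjusted p = 0.0046). Cx3cl1, or fractalkine, read 10.77, 10.60 and 10.68 in the knockout and 7.97, 8.99 and 8.09 in wild type, 5.04-fold higher (2.33 on the log2 scale, SE 0.29, limma adjusted p = 0.0043). Both chemokines occur as membrane-bound forms that tether the cells bearing their receptor. In wild type, Cx3cl1 was highest on replicate 2, the array with gland transcripts. Both calls held with any 1 array left out, with adjusted p of at most 0.021 for Cxcl16 and 0.025 for Cx3cl1. Against wild-type replicate 2 alone, a comparison that holds no wild-type spread, Cx3cl1 was still higher, by 1.69 on the log2 scale.

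Among ligands of the receptors at background, Ccl8, a ligand of mouse Ccr8, read 13.32, 13.65 and 13.67 in the knockout and 12.07, 11.82 and 12.83 in wild type. The groups did not overlap, as for 47.4% of all tested genes, and the change was 1.31 on the log2 scale (SE 0.29, limma adjusted p = 0.021). The Ccr1 ligands Ccl9 and Ccl6 had log2 fold changes of 1.48 (SE 0.39, limma adjusted p = 0.036) and 1.76 (SE 0.46, limma adjusted p = 0.034). All 3 calls failed on omitting knockout replicate 2, knockout replicate 3 or wild-type replicate 1. The limma adjusted p then reached 0.115 for Ccl9, 0.110 for Ccl6 and 0.077 for Ccl8. Ccl9 and Ccl6 also lost theirs without knockout replicate 1, and Ccl6 without wild-type replicate 3. The Ccr2 ligands Ccl2 (0.40), Ccl7 (-0.55) and Ccl12 (0.42) did not pass the test, nor did Ccl5 (0.38) and Ccl3 (0.51). Ccl11, an eosinophil attractant that binds Ccr3, had a log2 fold change of 0.66 by its brighter probe (limma adjusted p = 0.171) and of 1.73 by its dimmer probe (limma adjusted p = 0.029), so its probes disagreed about the call. Ccl25, the ligand of Ccr9, had -0.31 by one probe and 0.28 by the other, neither called. Ccl20, the ligand of Ccr6, and Ccl1, a ligand of Ccr8, were above background on none of the 6 arrays. Ccl24 was detected on 2 knockout arrays and on 0 wild-type arrays and was not tested.

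**Figure D4:**
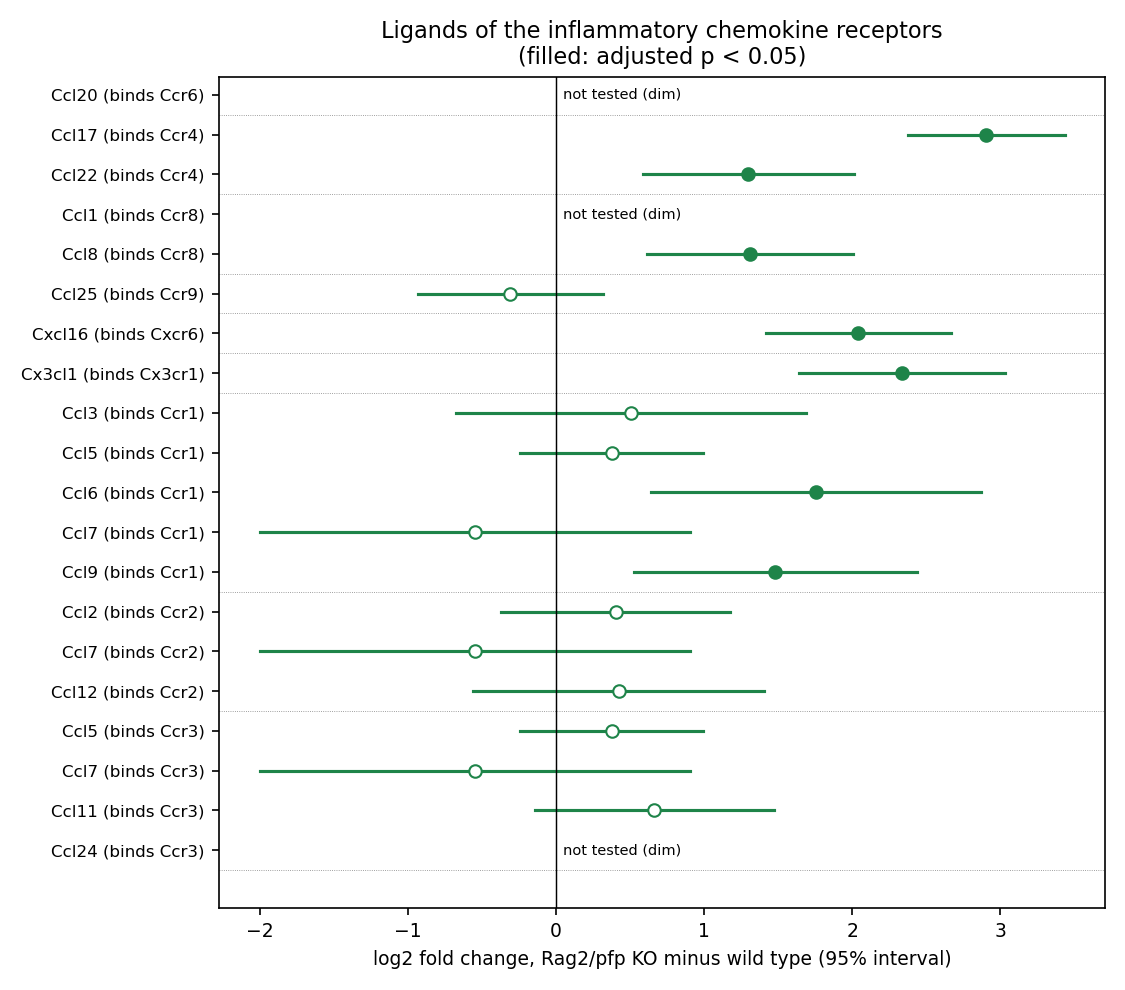
Log2 fold change of each ligand, Rag2/pfp KO minus wild type, with 95% intervals (horizontal axis), grouped by the receptor it binds in mouse, so that a ligand of several receptors appears more than once. Filled points passed an adjusted p of 0.05: they are Ccl17, Ccl22, Ccl8, Cxcl16, Cx3cl1, Ccl6 and Ccl9, all above 0.

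Below the receptors, 23 of 28 signalling genes on the array were tested, of which 4 fell, 2 rose and 17 were not called, with a median log2 fold change of 0.31. These shares are near those over all tested genes, 17.3% lower and 10.2% higher, and are not a result about the signalling genes as a set. The counts take 1 probe per gene, and some probes disagreed. Another probe of Rgs1 was called higher (1.42, limma adjusted p = 0.0077) and another of Grk6 lower (-1.05, limma adjusted p = 0.027). Elmo1 was counted as a fall, but most of its 12 probes were not called. The call of the counted probe was lost without 5 of the 6 arrays (limma adjusted p up to 0.075). The largest falls were those of Pik3cg, the catalytic subunit of phosphoinositide 3-kinase gamma (-2.41, SE 0.42, limma adjusted p = 0.011), Plcb2, a phospholipase C of blood cells (-2.30, SE 0.42, limma adjusted p = 0.012), and Rac2, a small GTPase of blood cells (-1.27, SE 0.33, limma adjusted p = 0.032). Arrb1, a beta-arrestin that uncouples receptors, rose by 0.81 (SE 0.17, limma adjusted p = 0.019) by 1 of its 2 probes, and Plcb3 rose by 0.69 (SE 0.14, limma adjusted p = 0.017). Gnai2, the inhibitory G protein subunit that couples to these receptors, read -0.45 (limma adjusted p = 0.219). The call of Pik3cg held with any 1 array left out (adjusted p of at most 0.046). Those of Rac2 and Arrb1 were lost without 4 of the 6 arrays, that of Plcb3 without 3 and that of Plcb2 without knockout replicate 3 (adjusted p up to 0.105, 0.070, 0.069 and 0.051). The number that fell was between 1 and 7 with 1 array left out and the number that rose between 0 and 3.

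**Figure D5:**
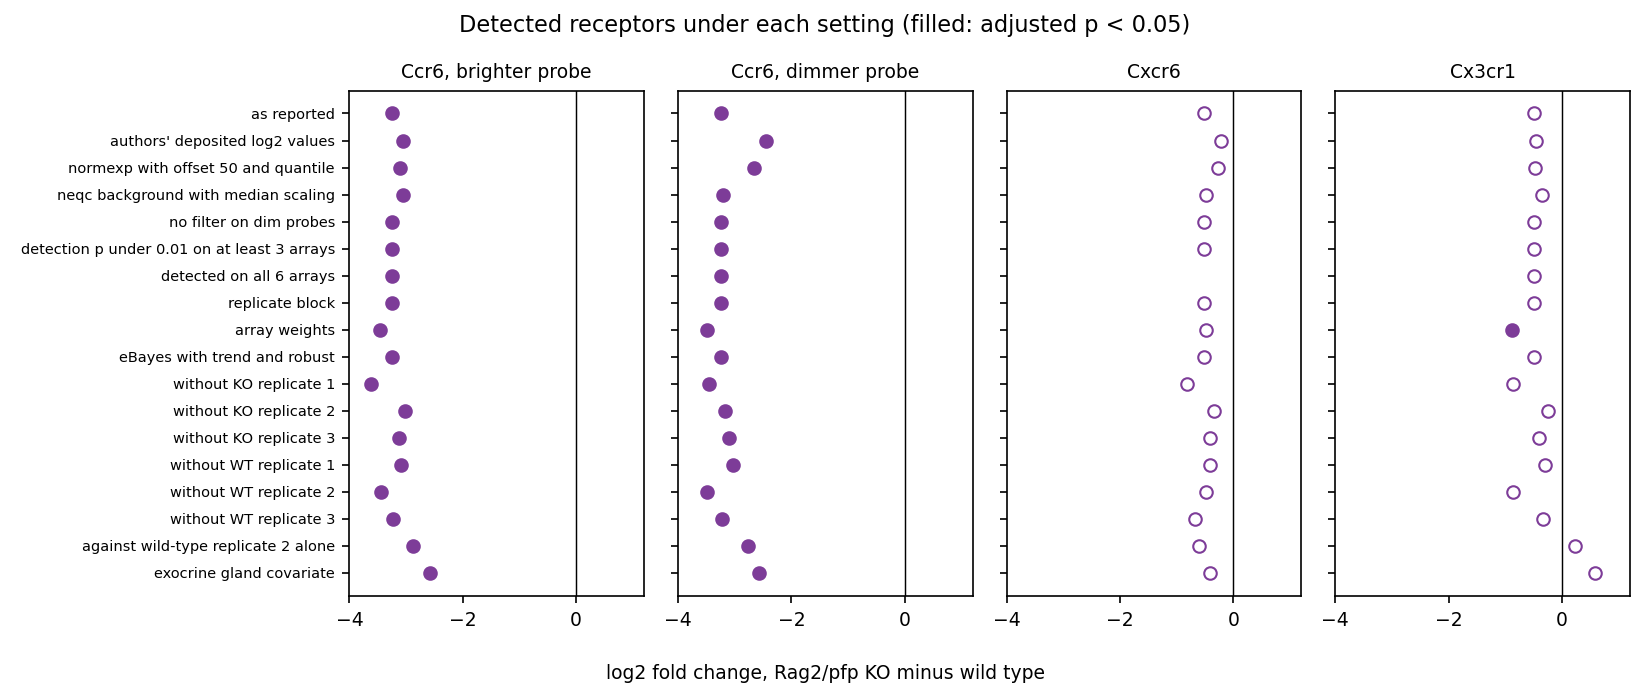
Log2 fold change, Rag2/pfp KO minus wild type (horizontal axis), of the 4 tested receptor probes under each alternative (rows), with filled points where the adjusted p was under 0.05 and no point where the probe was not tested. Ccr6 stays between -3.62 and -2.45 and filled throughout, whereas Cx3cr1 runs from -0.88 to 0.59. In the row against wild-type replicate 2 alone, the fill rests on knockout spread only.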

How the data were processed

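Total RNA from lymph nodes was measured on Illumina Mouse Ref-8 v2 BeadChips, 3 arrays of Rag2/pfp KO and 3 of wild-type nodes, grouped by the labels. The deposited unnormalized table gives an average bead intensity and a detection p-value per probe and array, exported by the authors from GenomeStudio 2011.1, per the submitters' processing notes. The deposited table of log2 values equals quantile-normalized log2 intensities without background correction to within 5e-07. Intensities were here corrected against the negative controls as inferred from the detection p-values, given an offset of 16 and quantile-normalized (neqc, limma 3.58.1, R 4.3.3). Testing took in the 14378 of 25697 probes detected (p-value below 0.05) on 3 or more arrays, using lmFit and eBayes, adjusted by Benjamini-Hochberg over all of them, threshold 0.05. Of several probes of a gene, the one with the highest mean signal stands for it in gene counts. Probes were named by the platform annotation, with 23962 matched to RefSeq by Entrez number. The procedure was tested on simulated data. The number of arrays limits the precision.

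The receptors and all gene lists were chosen with earlier results of these data known. Named were all 9 receptors, every called gene among the other receptors and ligands, up to 3 called signalling genes per direction the 3 nearest profiles and up to 3 called genes per marker list. Other genes, such as uncalled ligands and undetected markers, were named after their values were seen. Alternatives changed the background correction, normalization, filter, weights, variance model and replicate block, and left out each array. A comparison with wild-type replicate 2 alone, a gland covariate and the marker counts were added after seeing the data. Protein sequences were not used here.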

Additional observations from a re-analysis of the deposited data

How the results depend on the processing

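Ccr6 fell under every alternative run, by its brighter probe between -3.62 and -2.57 and by its dimmer one between -3.49 and -2.45. Its limma adjusted p was under 0.05 wherever each group held several arrays. Calls against wild-type replicate 2 alone carry no wild-type spread, as that comparison holds 1 wild-type array. Cxcr6 passed the test under no alternative and was not tested where detection on all 6 arrays was required. Cx3cr1 changed sign against wild-type replicate 2 alone (0.23) and with the gland covariate (0.59), both added after seeing the data, and was called with array weights (-0.88). With 1 array left out, the probes called ran between 1805 and 6298, other receptors lower between 2 and 6, ligands higher between 3 and 7, signalling genes lower between 1 and 7 and higher between 0 and 3. Array weights gave 7968 probes, 2 members lower, 7 other receptors lower, and 7 signalling genes lower and 5 higher. Against wild-type replicate 2 alone there were 950 probes, 0 other receptors higher, and 1 signalling gene lower and 0 higher. The gland covariate gave 1 signalling gene lower and 7 higher, and median scaling 2 lower and 5 higher. The causes were not tested. The labels do not say that the replicate numbers pair arrays, so the numbers were not taken to pair them. The deviations of arrays with the same number correlated positively for numbers 1 and 2 and negatively for number 3 (r = 0.49, 0.32 and -0.31). Knockout replicate 1 and wild-type replicate 3 gave r = 0.42. Deviations were centred within groups of 3 arrays, so such correlations cannot decide on pairing. With the replicate block, 4 signalling genes were higher, and the Ccr6 changes stayed at -3.25 (limma adjusted p = 0.0064 for both probes). The planned description of receptor protein sequences was not run. The 6 receptors near background, each with 1 probe, would have gone uncalled without a filter too (limma adjusted p between 0.361 and 0.751), and such signals limit what can be seen of them.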
